A study of Mus musculus with 12 samples.

Results

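Satellite repeat RNAs, as labelled, were followed here as 4 names of the mouse repeat annotation, GSAT_MM, SYNREP_MM, MMSAT4 and MurSatRep1, out of 1528 repeat names in the table of repeat subfamilies. The rule that picks them uses names and no measured value, though it was written with earlier results of these data known, and all 4 were among the 1180 subfamilies with a mean normalized count of at least 10 that entered the tests. All 12 libraries came from testes of *Mael*-/- mice on the C57BL/6 background at 3 months of age, 3 libraries in each of 4 groups, and no library of another genotype was analysed here, so that no effect of the mutation on satellite RNA was measured. TOTAL is RNA of the whole testis extract, a detergent lysate cleared by centrifugation and brought to 10 mM EDTA, which takes ribosomes apart. INPUT is RNA of the pooled sucrose gradient fractions 5 to 8 of that extract, where the RNA of LINE-1 (L1) retrotransposons sediments with ORF1p, the RNA-binding protein that L1 encodes. IP is RNA recovered from INPUT with an antibody against ORF1p on beads, and BO (beads only) is RNA recovered from INPUT with beads that carried no antibody, each BO library being made from the same volume as its IP counterpart and not from a set amount of RNA. The question was whether any satellite RNA came down with ORF1p, beyond what the beads took by themselves.

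Satellite DNA consists of short units repeated head to tail in long arrays. GSAT_MM is the major (gamma) satellite, which fills the pericentromeric heterochromatin of mouse chromosomes, is packed with H3K9 methylation and HP1, and is transcribed into RNA that mostly stays in the nucleus. L1 RNA, in contrast, leaves the nucleus to be translated and is bound by its own ORF1p. Because satellite arrays are largely missing from the mm10 assembly and their copies are near identical, reads from them fall on few annotated copies and cannot be placed on one of them with certainty, which makes these counts less certain than those of dispersed repeats. MurSatRep1 carries a satellite in its name but is listed under the class Unknown in the tables of single repeat loci, so it is called here by its name only and counted among the 4 names without being taken as a satellite.

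The deposited value of each subfamily is a read count that the authors scaled to the upper quartile of its library, called the normalized count below. Reads were recovered from it exactly, and reads on repeats numbered from 6021800 to 7282171 in TOTAL, from 3045169 to 3880641 in INPUT, from 1712212 to 3512997 in BO and from 1384904 to 2003193 in IP. BO replicate 3 stood apart, with 52.1% of its reads on large subunit rRNA, where the other 11 libraries had from 1.94% to 15.9%. The 7SL RNA held between 38.2% and 51.6% of the reads in TOTAL and at most 1.63% in BO and IP, so a share of all reads means something different in each group. In the authors' means over genes, *Mael* stood at 0.65 in TOTAL, at 0.502 in BO and at 0 in INPUT and IP. The meiotic markers *Sycp1* and *Sycp3*, parts of the synaptonemal complex, stood at 9433 and 5739 in TOTAL, against 30.1 for *Tnp1* and 22 for *Prm1*, which pack the DNA of spermatids. The extract also held RNA of somatic cells (*Cyp17a1* of Leydig cells at 29894, *Wt1* of Sertoli cells at 3781), and in such bulk samples fewer cells of a type and less RNA per cell cannot be told apart.

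MMSAT4 and MurSatRep1 held most of the reads on the 4 names. Together they took between 91.7% and 98.4% of the reads on the 4 names in each library, and GSAT_MM and SYNREP_MM the remaining 1.57% to 8.31%. These are read counts that are not corrected for the length of the annotated copies, so they give no order of transcript levels between the names. The 4 names together drew from 0.506% to 0.911% of all repeat reads in TOTAL, from 0.942% to 1.07% in INPUT, from 0.951% to 2.15% in BO and from 1.54% to 2.01% in IP. With rRNA and small RNA names left out of the total, the median share of MMSAT4 was 0.945% in TOTAL, 0.811% in INPUT, 1.20% in BO and 1.15% in IP. That of MurSatRep1 was 0.911% in TOTAL, 0.638% in INPUT, 0.852% in BO and 0.812% in IP.

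GSAT_MM, the major satellite, had its highest group mean in BO, with wide overlap between BO and IP. Its normalized counts in replicates 1, 2 and 3 were 783, 561 and 582 in TOTAL, 657, 416 and 445 in INPUT, 2445, 1415 and 693 in BO, and 1528, 896 and 442 in IP. Replicate 1 was the highest in each of the 4 groups, and the spread within BO and within IP, 3.53-fold and 3.46-fold between the extremes, exceeded that within TOTAL (1.40-fold) and INPUT (1.58-fold). The means were 642 ± 122 in TOTAL, 506 ± 131 in INPUT, 1518 ± 881 in BO and 955 ± 546 in IP (SD, n = 3 each). The reads behind them numbered from 432 to 3923 per library, enough that the spread between replicates was well beyond counting error: the exact 95% Poisson interval of the value in BO replicate 1 was 2369 to 2523, and that in BO replicate 3 was 629 to 761. All intervals on reads cover counting error only.

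SYNREP_MM separated the bead controls from every other group. Its normalized counts in replicates 1, 2 and 3 were 56.3, 108.7 and 94.7 in TOTAL, 68.6, 62.9 and 52.9 in INPUT, 496, 327 and 164 in BO, and 101.5, 66.6 and 32.2 in IP. Each BO library lay above all 9 libraries of the other groups, while IP overlapped both INPUT and TOTAL. The means were 86.5 ± 27.1 in TOTAL, 61.5 ± 7.93 in INPUT, 329 ± 166 in BO and 66.8 ± 34.7 in IP (SD, n = 3 each). SYNREP_MM was the sparsest of the 4, with 33 reads in IP replicate 3, whose Poisson interval ran from 22.2 to 45.2 normalized counts, and 795 reads in BO replicate 1.

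MMSAT4 drew many reads in every group, with its lowest mean in INPUT and its highest in BO. Its normalized counts in replicates 1, 2 and 3 were 21271, 17500.1 and 16897 in TOTAL, 16911, 15056 and 15178 in INPUT, 18354, 27659.8 and 24477 in BO, and 22199.8, 22378 and 16947 in IP. All 3 BO libraries and all 3 IP libraries were above the highest INPUT library, though IP replicate 3 only narrowly (16947 against 16911), and both groups overlapped TOTAL. The means were 18556 ± 2370.4 in TOTAL, 15715 ± 1037 in INPUT, 23497 ± 4729.9 in BO and 20508 ± 3085 in IP (SD, n = 3 each).

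MurSatRep1 also had its lowest mean in INPUT but, unlike MMSAT4, its highest in TOTAL. Its normalized counts in replicates 1, 2 and 3 were 18949, 16881 and 15743 in TOTAL, 12876, 12806 and 11944 in INPUT, 14105, 18559.5 and 17386 in BO, and 15691, 16110.4 and 12732 in IP. INPUT lay below every library of TOTAL and BO, and IP replicate 3 fell inside the range of INPUT. The means were 17191 ± 1625 in TOTAL, 12542 ± 519 in INPUT, 16684 ± 2309 in BO and 14845 ± 1842 in IP (SD, n = 3 each).

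**Figure D1:**
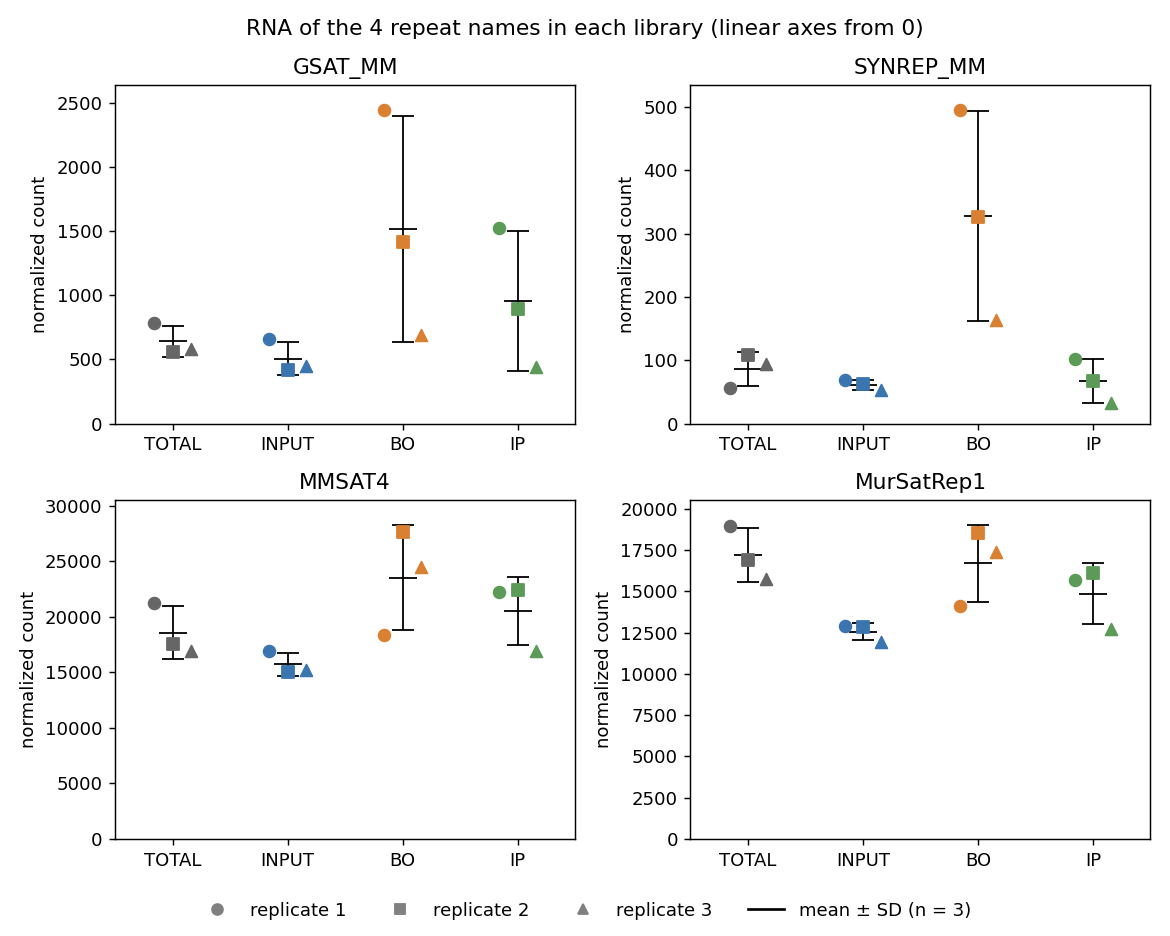
Normalized counts (y axis, linear and starting at 0) of the 4 repeat names in TOTAL, INPUT, BO and IP (x axis), with a point per library, its shape giving the replicate number, and the mean ± SD of 3 libraries in black. For SYNREP_MM the BO libraries run from 164 to 496 and lie above all other libraries, whereas MMSAT4 runs from 15056 to 27659.8 and MurSatRep1 from 11944 to 18949 over the 12 libraries.

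The first comparison was IP against BO, which sets what the antibody brought down beside what beads alone brought down. Subfamilies were compared with limma on log2(normalized count + 1), all 12 libraries in 1 fit, and calls required a log2 fold change beyond 1 or -1 with a Benjamini-Hochberg adjusted p under 0.05 over the 1180 subfamilies. Of the 4 names, 1 was called, SYNREP_MM, which was lower in IP; among all subfamilies tested, 8.90% were called. Its log2 fold change was -2.29 (SE 0.44, 95% interval -3.24 to -1.34, limma adjusted p = 0.00158), 4.88-fold lower in IP, and it ranked 7th from the lowest of 1180. The IP libraries (32.2 to 101.5) did not overlap the BO libraries (164 to 496). SYNREP_MM was called lower under every alternative that was run, including edgeR (-2.25, adjusted p = 0.00258) and DESeq2 (-2.18, adjusted p = 1.56e-06) on the recovered reads, and without BO replicate 3 it stood at -2.72 (limma adjusted p = 0.000655). For comparison, the young L1 subfamilies L1Md_A and L1Md_T, whose RNA encodes ORF1p, were 5.01-fold and 4.13-fold higher in IP than in BO by the same fit.

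The other 3 names did not pass in IP against BO. GSAT_MM had a log2 fold change of -0.66 (SE 0.46, 95% interval -1.66 to 0.33, limma adjusted p = 0.295), and the IP libraries (442 to 1528) lay across the range of the BO libraries (693 to 2445). Without BO replicate 3 it stood at -1.14 (limma adjusted p = 0.0634), and without IP replicate 3 at -0.19. MMSAT4 had -0.19 (SE 0.15, 95% interval -0.52 to 0.15, limma adjusted p = 0.383) and MurSatRep1 -0.17 (SE 0.12, 95% interval -0.42 to 0.09, limma adjusted p = 0.306), both turning positive, 0.31 and 0.33, when libraries were scaled to their total reads. Both intervals exclude a change of 1 in either direction, and that of GSAT_MM excludes an increase of 1 in IP but not a decrease. The median log2 fold change of the 4 names was -0.42, against -0.12 over all subfamilies tested.

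The second comparison, IP against INPUT, sets the ORF1p precipitate beside the fractions it was taken from. No name was called by limma, against 6.10% of all subfamilies. MMSAT4 had the lowest unadjusted p of the 4 by limma, at 0.0313, and the share of all subfamilies under 0.05 was not counted. edgeR and DESeq2 called 0 names as well, while of all 1180 subfamilies edgeR called 46 higher and 31 lower and DESeq2 50 and 33. GSAT_MM stood at 0.77 (SE 0.46, 95% interval -0.23 to 1.77, limma adjusted p = 0.235), higher in IP replicates 1 and 2 than in any INPUT library and within the INPUT range in replicate 3. With libraries scaled to total reads GSAT_MM was called higher, at 1.32 (limma adjusted p = 0.0283), under a scaling where the median subfamily stood at 0.47. Of all 1180 subfamilies, 126 were called higher and 18 lower under that scaling. SYNREP_MM stood at -0.02 (SE 0.44, 95% interval -0.97 to 0.93), MMSAT4 at 0.37 (SE 0.15, 95% interval 0.04 to 0.71, limma adjusted p = 0.0916) and MurSatRep1 at 0.24 (SE 0.12, 95% interval -0.02 to 0.49, limma adjusted p = 0.161). The median of the 4 was 0.31, against -0.06 over all subfamilies.

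The beads alone gave a different picture, when BO was set against INPUT. Of the 4 names 2 were called, GSAT_MM and SYNREP_MM, both higher in BO, where 5.42% of all subfamilies were called. SYNREP_MM was 4.82-fold higher in BO (log2 fold change 2.27, SE 0.44, 95% interval 1.32 to 3.22, limma adjusted p = 0.00248), the 3rd highest of the 1180 subfamilies, and its libraries did not overlap those of INPUT. It was called under every alternative, and without BO replicate 3 its log2 fold change was 2.70. GSAT_MM was 2.70-fold higher in BO (log2 fold change 1.43, SE 0.46, 95% interval 0.44 to 2.43, limma adjusted p = 0.0338), and its lowest BO library, at 693, was above the highest INPUT library, at 657. The call of GSAT_MM was lost without BO replicate 1 (0.997, adjusted p = 0.144), BO replicate 2 (1.39, adjusted p = 0.0884), INPUT replicate 2 (1.31, adjusted p = 0.103) or INPUT replicate 3 (1.35, adjusted p = 0.0966), and without BO replicate 3 it stood at 1.91 (adjusted p = 0.00754), all by limma.

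MMSAT4 and MurSatRep1 were also above INPUT in BO, by less than the size needed for a call. MMSAT4 stood at 0.56 (SE 0.15, limma adjusted p = 0.0161) and MurSatRep1 at 0.40 (SE 0.12, limma adjusted p = 0.0222). Their adjusted p by limma rose above 0.05 when single libraries were left out, to 0.072 for MMSAT4 and 0.0938 for MurSatRep1 without BO replicate 2, and to 0.485 and 0.689 with libraries scaled to total reads. The median of the 4 names in BO against INPUT was 0.997, beside 0.03 over all subfamilies. BO and IP also differed in small RNAs, since 7SL RNA was 380-fold lower in BO than in INPUT and 18.2-fold lower in IP than in INPUT; its part in the satellite values was not tested.

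IP against TOTAL compares the precipitate with the whole extract. No name was called by limma, where 6.36% of all subfamilies were. None had an unadjusted p under 0.05 by limma, and the share of all subfamilies under it was not counted. edgeR and DESeq2 called 0 names, while of all 1180 subfamilies edgeR called 36 higher and 38 lower and DESeq2 39 and 35. The log2 fold changes were 0.41 for GSAT_MM (SE 0.46, limma adjusted p = 0.570), -0.46 for SYNREP_MM (SE 0.44, limma adjusted p = 0.504), 0.14 for MMSAT4 (SE 0.15, limma adjusted p = 0.569) and -0.22 for MurSatRep1 (SE 0.12, limma adjusted p = 0.223). With libraries scaled to total reads, all 4 were called higher, where 1014 of all 1180 subfamilies were called higher and 17 lower. GSAT_MM stood at 1.96, MMSAT4 at 1.69, MurSatRep1 at 1.33 and SYNREP_MM at 1.06, beside a median of 1.49 over all subfamilies. GSAT_MM and MMSAT4 lay above that median and the other 2 below it.

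INPUT against TOTAL shows how the 4 RNAs passed through the gradient. No name was called by limma, against 0.339% of all subfamilies. edgeR and DESeq2 called 0 names, while of all 1180 subfamilies edgeR called 0 higher and 6 lower and DESeq2 0 and 9. MurSatRep1 had the lowest unadjusted p of the 4 by limma, at 0.00239, and the share of all subfamilies under 0.05 was not counted. Its log2 fold change was -0.45 (SE 0.12, 95% interval -0.71 to -0.20, limma adjusted p = 0.0834), and its 3 INPUT libraries (11944 to 12876) lay below its 3 TOTAL libraries (15743 to 18949). With the replicate number as a block, taken here to pair the libraries of these groups, its adjusted p by limma was 0.0431 at the same fold change. GSAT_MM stood at -0.36, SYNREP_MM at -0.44 and MMSAT4 at -0.23, with limma adjusted p of 0.760, 0.677 and 0.488. With the replicate block their limma adjusted p were 0.533, 0.611 and 0.454. All 4 turned positive, from 0.55 to 0.77, with libraries scaled to total reads, where the median subfamily was at 1.03. The median of the 4 was -0.40, beside 0.03 over all subfamilies, and in IP against TOTAL it was -0.04, beside -0.05.

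**Figure D2:**
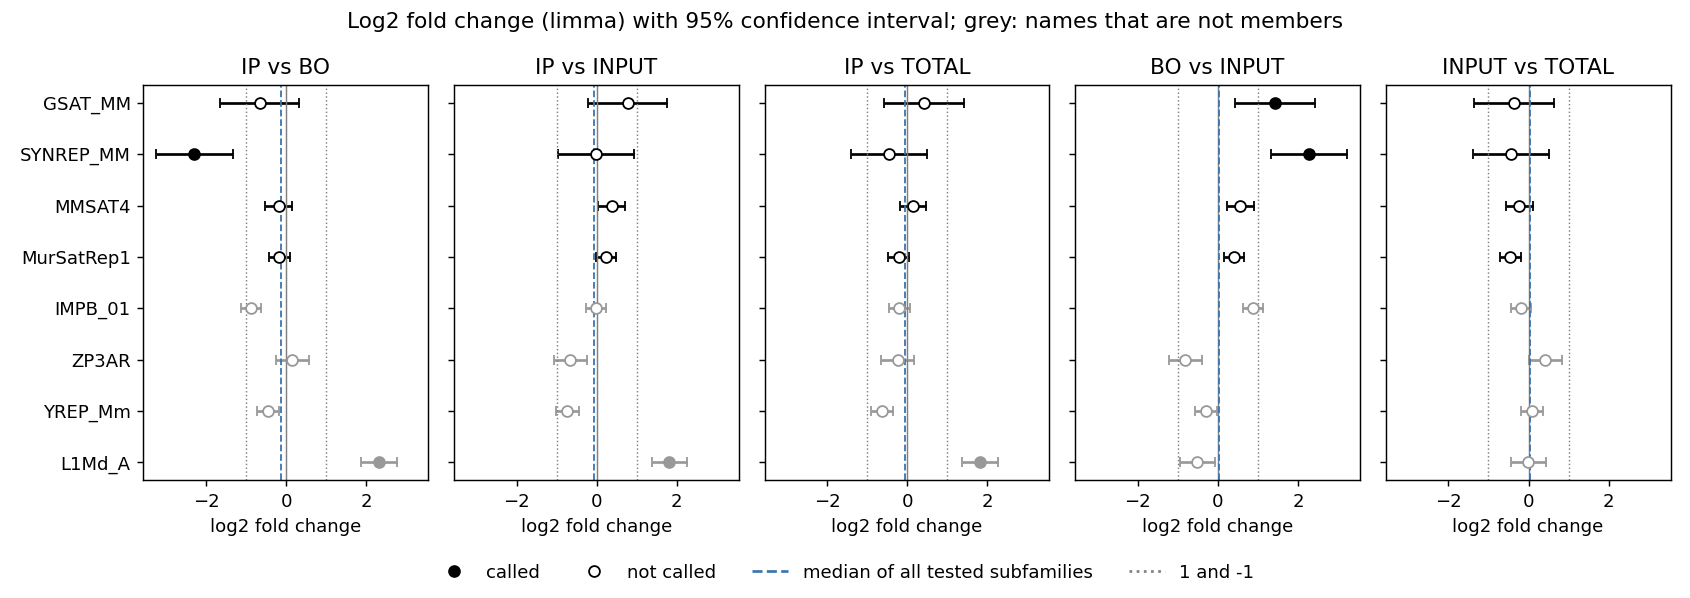
Log2 fold change by limma (x axis) with its 95% confidence interval for the 4 repeat names (black), 3 other satellite or related repeat names and L1Md_A (grey) in each of 5 comparisons; filled points passed the call, the dashed line is the median of all 1180 subfamilies and dotted lines mark 1 and -1. SYNREP_MM lies at -2.29 in IP against BO and at 2.27 in BO against INPUT, and L1Md_A at 2.32 in IP against BO.

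Ratios of the names within a library do not depend on how libraries were scaled. SYNREP_MM gave 0.203, 0.231 and 0.236 counts for each count of GSAT_MM in BO replicates 1, 2 and 3, and 0.0664, 0.0743 and 0.0729 in the IP replicates. The ratio was tight in each of these groups, although the level of both RNAs varied over 3-fold within them, and the groups did not overlap. In INPUT it was 0.104, 0.151 and 0.119, between IP and BO without overlap of either, and in TOTAL it was 0.0719, 0.194 and 0.163, across the range of INPUT and IP. The log2 ratio was 1.63 units lower in IP than in BO and 0.79 units lower in IP than in INPUT, each with an exact two-sided permutation p = 0.1, the smallest that 3 against 3 libraries can give (adjusted p = 0.3 over 18 ratios tested).

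MMSAT4 gave 1.12, 1.04 and 1.07 counts for each count of MurSatRep1 in TOTAL, and 1.31, 1.18 and 1.27 in INPUT, without overlap. In BO the ratio was 1.30, 1.49 and 1.41, and in IP it was 1.41, 1.39 and 1.33. The log2 ratio in IP exceeded that in TOTAL by 0.36 and that in INPUT by 0.14, each with an exact permutation p = 0.1 (adjusted p = 0.3), and differed from that in BO by -0.02 (exact permutation p = 0.9).

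**Figure D3:**
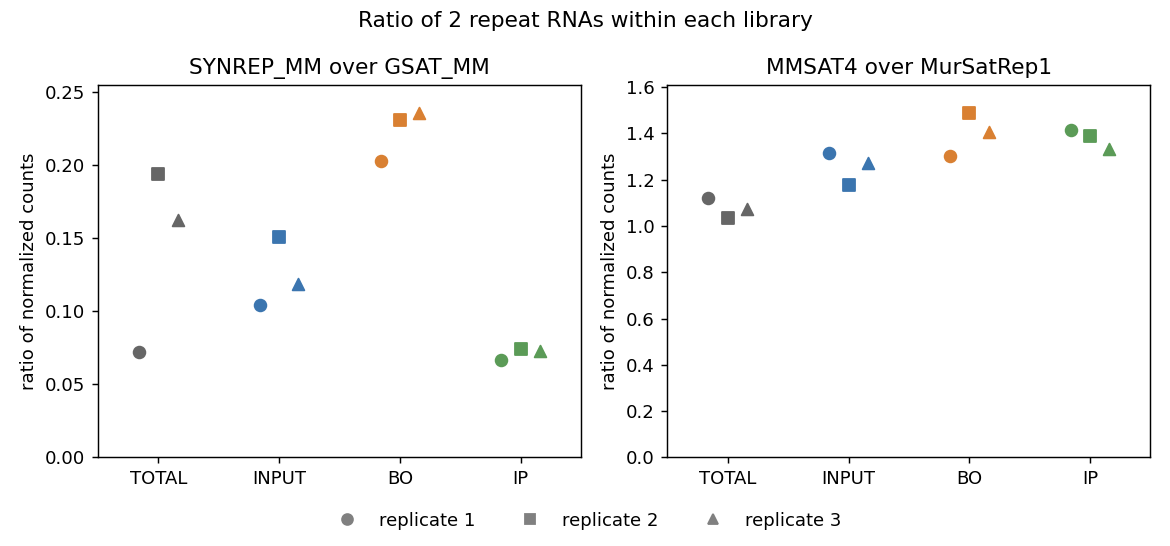
Ratio of the normalized counts of SYNREP_MM to GSAT_MM (left) and of MMSAT4 to MurSatRep1 (right) in each library (y axes, linear from 0) by group (x axis), with point shape giving the replicate number. The left ratio runs from 0.203 to 0.236 in BO and from 0.0664 to 0.0743 in IP, and the right ratio is lowest in TOTAL, from 1.04 to 1.12.

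Over the 12 libraries MMSAT4 and MurSatRep1 were each among the 3 subfamilies most like the other, with a Pearson correlation of 0.80 of their log2 values, as a description over libraries that share groups. The most similar of 751 subfamilies with a mean of at least 100 was RLTR44-int for MMSAT4 (0.85), Kanga1 for MurSatRep1 (0.85), L1_Mus1 for GSAT_MM (0.85) and L1M3e for SYNREP_MM (0.91). Next came L1M4b for MMSAT4 (0.81), LTR37-int for MurSatRep1 (0.78), ORR1C2-int and MMETn-int for GSAT_MM (0.83 each), and (TAA)n and L1MA4 for SYNREP_MM (0.87 each). GSAT_MM and SYNREP_MM correlated at 0.79 with each other. L1M3e and L1_Mus1 are L1 subfamilies, RLTR44-int is the internal part of an LTR element and Kanga1 is a DNA transposon.

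Among 22 other satellite or satellite-like names that had been listed, 4 occur in the table, and 3 of them, IMPB_01, ZP3AR and YREP_Mm, had enough reads to be tested. None of the 3 was called in any of the 5 comparisons. IMPB_01 had normalized counts from 2533 to 3487 in BO, above its 9 other libraries, which ran from 1416 to 1854. It stood at -0.88 in IP against BO (limma adjusted p = 0.000117) and at 0.87 in BO against INPUT (limma adjusted p = 0.000266), the same signs as GSAT_MM and SYNREP_MM. ZP3AR had the opposite sign in BO against INPUT, at -0.81 (limma adjusted p = 0.00652), and YREP_Mm stood at -0.73 in IP against INPUT (limma adjusted p = 0.00132). Higher values in BO than in INPUT were therefore not shared by all satellite names. The fourth, SUBTEL_sa, drew from 2 to 11 reads per library and was not tested. MurSAT1, which was not on the list and was noticed in the table afterwards, drew from 0 to 5 reads per library and was not tested either.

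For MurSatRep1 the authors also gave group means for single copies, without values per library, so the comparison of copies made here has no replicate check, and the authors' own p-values were not used. The copies are named by number, and each table was normalized separately, so IP is set beside 1 group at a time. No single copies named GSAT_MM, SYNREP_MM or MMSAT4 are listed there, so these names could not be analysed at single copies. The tables list 927 copies of MurSatRep1, of which 581 were above 0 in IP, 527 in BO, 669 in INPUT and 652 in TOTAL. Reads were spread unevenly, with 25.5% of the IP sum on 3 copies and 40.8% on 10. The copy MurSatRep1_699 alone held 14.3% of the IP sum, 16.02% of the BO sum, 9.01% of the INPUT sum and 6.57% of the TOTAL sum.

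MurSatRep1_699 was the highest copy in all 4 groups, and it was higher in BO than in IP and higher in IP than in INPUT or TOTAL. Its authors' mean was 833 in BO beside 449 in IP, 367 in INPUT beside 589 in IP, and 338 in TOTAL beside 586 in IP. MurSatRep1_404, the next in IP, had 195 in BO beside 221 in IP and 139 in INPUT beside 290 in IP, 2.08-fold higher. MurSatRep1_2391, the third in IP, had 97.7 in BO beside 131.7 in IP, and MurSatRep1_700, the second in BO, had 216 in BO beside 106 in IP. MurSatRep1_292 went the other way, with 305 in TOTAL beside 36.1 in IP, 8.45-fold lower, and 137 in INPUT beside 36.2 in IP. The authors' means summed over copies of MurSatRep1 were 5197 in BO beside 3148 in IP and 4078 in INPUT beside 4128 in IP. Against TOTAL they were 5148 beside 4107 in IP, under a normalization that differs from that of the subfamily counts. The same sums over repeat copies of every kind were 683705 in BO beside 475703 in IP and 752292 in INPUT beside 624552 in IP. In TOTAL that sum was 1.04e+06 beside 620663 in IP, so repeat copies as a whole were lower in IP each time.

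With a mean of both groups of at least 20, 41 copies could be read against BO, 43 against INPUT and 51 against TOTAL. Against BO, 0 copies were beyond a log2 ratio of IP to BO (mean + 1) of 1 and 15 (36.6%) were beyond -1, where of the 2143 repeat copies of every kind at that level 19.2% were beyond 1 and 49.1% beyond -1. The log2 ratios ran from -3.79 to 0.97 with a median of -0.67, beside a median of -0.95 over all repeat copies at that level. Against INPUT, 6 copies (14.0%) were beyond 1 and 7 (16.3%) beyond -1, beside 24.0% and 28.3% of all repeat copies at that level. Against TOTAL, 2 copies (3.92%) were beyond 1 and 16 (31.4%) beyond -1, beside 27.8% and 23.8% of all repeat copies. Of the copies beyond -1, 9 of 15 against BO, 4 of 7 against INPUT and 11 of 16 against TOTAL had an IP mean under 20 and entered only through the other group, and 2 of the 6 beyond 1 against INPUT entered only through IP, so these counts describe the copies that were read and support no direction. Some copies with neighbouring numbers lay together, chosen here after their values were seen. MurSatRep1_1902, MurSatRep1_1903 and MurSatRep1_1905 had 139.9, 193 and 164 in BO beside 9.17, 16.8 and 11.8 in IP. All 3 are among the copies that entered only through BO. MurSatRep1_1372, MurSatRep1_1373 and MurSatRep1_1374 were above their BO, INPUT and TOTAL means in IP, with MurSatRep1_1374 at 32.3 in BO beside 64.4 in IP and at 26.6 in TOTAL beside 84.1 in IP.

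**Figure D4:**
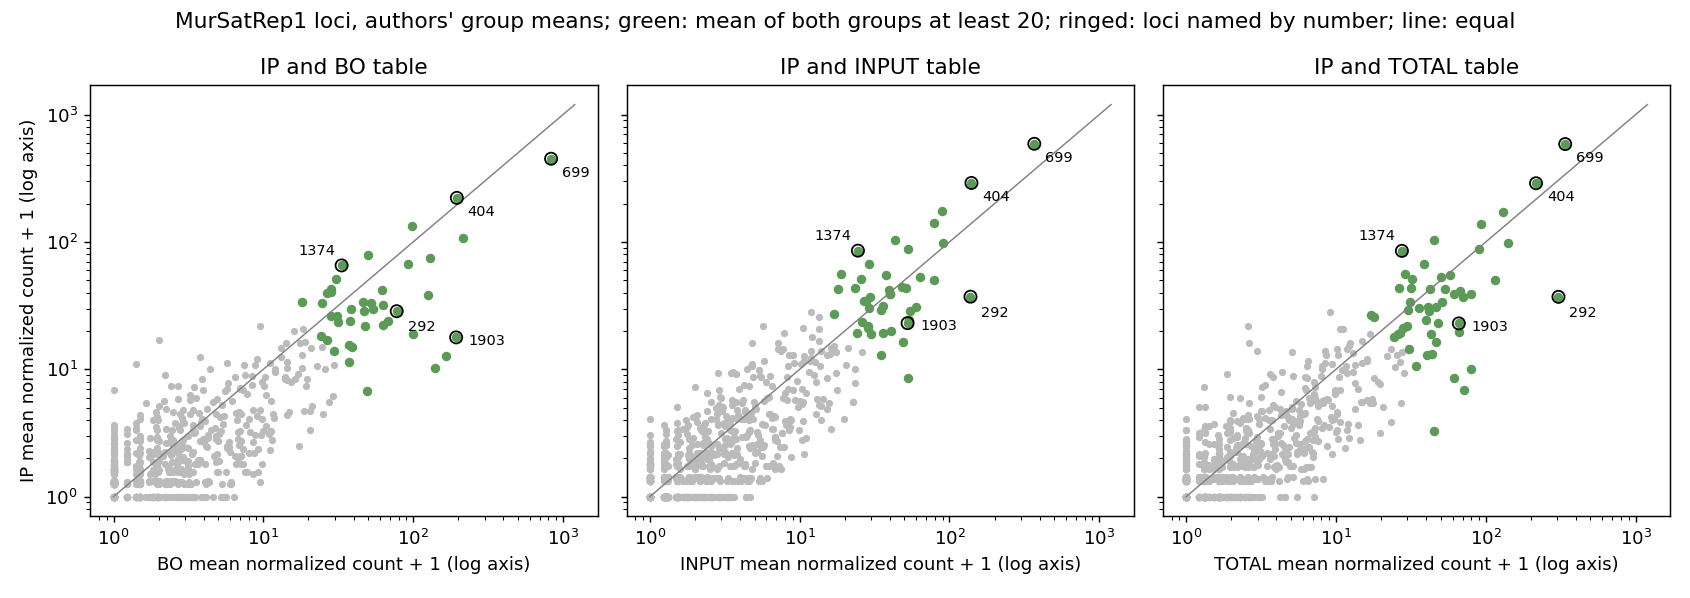
Authors' group means of the 927 listed single copies of MurSatRep1, with the mean in BO, INPUT or TOTAL on the x axis and in IP on the y axis (normalized count + 1, both log axes), green where the mean of both is at least 20, with ringed copies named by number and a line where both are equal. MurSatRep1_699 is the highest copy in each panel, and the green points include copies that reach 20 only through 1 of the groups.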

How the data were processed

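The processed files of 12 libraries were analysed, with each library's group and replicate number read from its label. Libraries were rRNA-depleted, stranded and read as single ends, and whether reads were counted by strand is not given in the sources used here. Mapping to mm10 by the authors used STAR 2.6.0c. They resolved multiply mapping reads with Telescope, collapsed the counts to subfamilies and scaled these to the upper quartile with EBSeq. The deposited signal is that normalized count. In each library 100% of values were whole multiples of 1 step (tolerance 0.1 of a read), so reads were recovered by division. For single copies and genes, the deposited signal is the mean of DESeq2 1.24.0 normalized counts per group. The authors' fold changes, test statistics and p-values in the same tables were not used.

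Here log2(normalized count + 1) of 1180 subfamilies with a mean of at least 10 was fitted with limma 3.58.1 (trend) in R 4.3.3, with Benjamini-Hochberg adjustment. In IP against BO limma called 60 higher and 45 lower, and on the recovered reads edgeR 4.0.16 called 64 and 35 and DESeq2 1.42.0 called 70 and 38. Alternatives tried were a pseudocount of 0.1 or of 10, a minimum mean of 100 or none, scaling by totals or median ratios, the compared groups only, a replicate block, both count tests and each library left out. Exact two-sided permutation tests were used for ratios. The text names the 4 members, other satellite names on a list, the 3 subfamilies most like each member and the 3 highest copies in IP, TOTAL and BO. Other copies were chosen after their values were seen, as said beside them. Members and lists were chosen with earlier results of these data known. Replicates are biological according to the series. No 2 libraries of a group agreed within sampling noise, which cannot tell separate animals from separate libraries of the same extract. Same-numbered INPUT and TOTAL libraries deviated together (correlations 0.63, 0.34 and 0.32 over subfamilies, 2 of 3 best with their own number), every one above 0.1, so the numbers were taken to pair those groups.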

Additional observations from a re-analysis of the deposited data

How the results depend on the processing

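Of 360 recomputed values, 323 kept their direction and their side of the threshold, and the cause of the others was not tested. Scaling to library totals gave, in IP against INPUT, 1.32 for GSAT_MM and 0.52 for SYNREP_MM; in IP against TOTAL, 1.96 for GSAT_MM, 1.06 for SYNREP_MM, 1.69 for MMSAT4 and 1.33 for MurSatRep1; in INPUT against TOTAL, 0.65, 0.55, 0.77 and 0.55; and in IP against BO, 0.31 for MMSAT4 and 0.33 for MurSatRep1. Members called numbered 1 in IP against INPUT and 4 in IP against TOTAL under that scaling, and the values are the same with it and a replicate block together, a fit chosen after seeing the data. It moved the median subfamily from -0.12 to 0.36 in IP against BO, and the split of calls there from 60 higher and 45 lower to 125 and 17 (67 and 33 with median-ratio scaling). In IP against INPUT the split went from 38 and 34 to 126 and 18 (50 and 28 with median-ratio scaling), in IP against TOTAL from 34 and 41 to 1014 and 17, and in INPUT against TOTAL from 0 and 4 to 637 and 5.

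SYNREP_MM in IP against INPUT, at -0.02 and not called under any alternative, turned positive with a pseudocount of 10 (4.4e-05), median-ratio scaling (0.060), edgeR (0.13, or 0.093 with a replicate block) and DESeq2 (0.21), and ran from -0.39 to 0.42 with each library left out. With each library left out GSAT_MM ran from -0.012 to 0.88 in IP against TOTAL, negative without IP replicate 1, and from 0.997 to 1.91 in BO against INPUT, where the members called numbered 1 or 2.

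Leaving rRNA and small RNA names out of the total changed median shares of reads, to 0.0323% for GSAT_MM, 0.00526% for SYNREP_MM, 0.945% for MMSAT4 and 0.911% for MurSatRep1 in TOTAL, to 0.0238%, 0.00337%, 0.811% and 0.638% in INPUT, and to 1.20% for MMSAT4 in BO.

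A replicate block changed no call of a member. It gave an adjusted p by limma of 0.0754 for GSAT_MM in IP against BO, 0.0494 in IP against INPUT and 0.00262 in BO against INPUT, and moved the calls in IP against BO from 105 to 111. Same-numbered IP and BO libraries correlated at -0.014, 0.079 and 0.098 over subfamilies, and same-numbered BO and INPUT libraries at 0.30, 0.062 and 0.56, with 2 of 3 best with their own number. Since not every pair was above 0.1, the numbers were not taken to pair these groups, although the methods match each BO library to an IP sample. SYNREP_MM is limited by depth, with 33 to 102 reads outside BO replicates 1 and 2.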

Other observations

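GSAT_MM and SYNREP_MM had nearly the same ratio of BO to IP in each pair of same-numbered libraries, a comparison made after their values were seen and with no test. GSAT_MM was 1.60-fold, 1.58-fold and 1.57-fold higher in BO than in the IP library of the same number, although its level within each group spanned over 3-fold. SYNREP_MM was 4.88-fold, 4.90-fold and 5.08-fold higher in BO than in the same-numbered IP library. The IP values behind these ratios rest on 69, 52 and 33 reads. In IP replicate 3 the Poisson interval ran from 22.2 to 45.2 around 32.2. Counting error is thus wider than the spread of these ratios, and their closeness cannot be read as exact. MMSAT4 did not follow the number, with ratios of BO to IP of 0.827, 1.236 and 1.44, and MurSatRep1 had 0.899, 1.15 and 1.37. Against INPUT of the same number GSAT_MM in BO was 3.72-fold, 3.40-fold and 1.56-fold higher, so the agreement held between BO and IP and not with INPUT. The study's methods match each BO library by volume to a corresponding IP sample, and do not say whether the replicate numbers mark these pairs.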
